A study of Mus musculus with 4 samples.

Results

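The hypoxia-inducible factor (HIF) pathway was followed at the transcript level through 10 genes, chosen by their symbols out of 22138 genes in the deposited table. They are the HIF subunit genes Hif1a, Epas1 and Arnt, the 3 prolyl hydroxylase genes Egln1, Egln2 and Egln3, the ubiquitin ligase gene Vhl, and the target genes Vegfa, Bnip3 and Ankrd37. RNA came from TT2 embryonic stem cells (C57BL/6xCBA mice, female per the labels), which were cultured without feeders in medium with serum and LIF. Cells received control siRNA (2 libraries) or siRNA against Hnrnpk (2 libraries), at 100 nM and again at 50 nM 24 hours later, and were harvested about 72 hours after the second transfection. No allele or other agent is named for either group, every library came from this single line, and the loss of the Hnrnpk transcript (below, the knockdown) was transient and partial. The labels number the replicates without saying whether they were separate cultures, so the spread between libraries may be technical. The p-values rest on that spread and, for the larger part, on variance pooled over genes. The labels also describe the RNA both as rRNA-depleted and as poly(A)-selected.

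A HIF is a pair of proteins, an oxygen-labile alpha subunit and the stable partner encoded by Arnt, which binds DNA at short hypoxia response elements and raises transcription of its targets. While oxygen is present, the prolyl hydroxylases modify the alpha subunit, and the protein encoded by Vhl then tags it for destruction. HIF activity is therefore controlled mainly through protein stability, which RNA does not show. Several HIF targets, among them Egln3 and Egln1, encode parts of this feedback, and in embryonic stem cells the pathway is best known for setting the balance between glycolysis and respiration.

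The sequences before 4 of the members are shown because they carry the core of the hypoxia response element and belong to the members that moved most (Bnip3, Egln3 and Ankrd37) and to one that was not called (Hif1a). Each is the 250 bases before the gene's start in RefSeq on GRCm38.p6, read 5′ to 3′ along the gene's own strand, with matches to ACGTG or GCGTG on either strand in capitals (CACGT and CACGC are the same letters read on the other strand). They lie at chr7:138909507-138909756, minus strand (Bnip3), chr12:54203875-54204124, minus strand (Egln3), chr8:45999851-46000100, minus strand (Ankrd37) and chr12:73907617-73907866, plus strand (Hif1a).
Bnip3: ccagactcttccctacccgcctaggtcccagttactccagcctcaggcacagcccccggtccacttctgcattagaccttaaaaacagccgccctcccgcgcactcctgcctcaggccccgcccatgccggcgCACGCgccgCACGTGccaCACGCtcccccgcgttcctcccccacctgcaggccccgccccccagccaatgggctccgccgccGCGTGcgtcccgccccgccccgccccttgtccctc
Egln3: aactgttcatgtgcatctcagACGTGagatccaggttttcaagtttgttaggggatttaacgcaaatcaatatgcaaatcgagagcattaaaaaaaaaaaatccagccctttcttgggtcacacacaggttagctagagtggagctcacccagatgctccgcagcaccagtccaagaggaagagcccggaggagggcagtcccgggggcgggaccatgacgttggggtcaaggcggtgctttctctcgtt
Ankrd37: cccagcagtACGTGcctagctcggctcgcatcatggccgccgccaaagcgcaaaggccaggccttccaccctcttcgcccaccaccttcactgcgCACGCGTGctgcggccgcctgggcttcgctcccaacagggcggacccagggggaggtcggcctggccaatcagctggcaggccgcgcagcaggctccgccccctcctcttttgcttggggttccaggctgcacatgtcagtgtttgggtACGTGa
Hif1a: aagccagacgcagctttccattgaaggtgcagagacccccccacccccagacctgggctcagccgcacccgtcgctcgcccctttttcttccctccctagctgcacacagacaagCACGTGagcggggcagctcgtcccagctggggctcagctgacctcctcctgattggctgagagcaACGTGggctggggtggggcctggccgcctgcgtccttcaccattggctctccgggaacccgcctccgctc
The Bnip3 window held 5 matches, the Ankrd37 window 4, the Hif1a window 3 and the Egln3 window 1, counting a palindrome (CACGTG) on both strands and overlapping matches separately. RefSeq windows of 300 bases, from 250 before to 50 after a start, were found for 9 of the 10 members, 11 windows in all, and 9 of the windows held a match. Egln2 had the most matches in 1 window (6, and 1 in its other window). Egln1 and the downstream Vegfa start had 2 each and Arnt had 1. A match to either motif stood in 43.8% of all 32851 such windows, and at least 3 matches stood in 8.93%. ACGTG alone stood in 19.6% of all windows and GCGTG in 32.4%. No match was found in the window of Vhl or in that of the upstream Vegfa start. Epas1 had no entry.

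Values are RPKM, read numbers scaled to the length of the gene and the size of the library, as the authors deposited them. A log2 change below is the mean of log2(RPKM + 0.5) after Hnrnpk siRNA minus that after control siRNA, with its standard error (SE) from limma, a linear model fitted to the 12486 genes whose mean reached 0.5 RPKM. Calls required an adjusted p (Benjamini-Hochberg, over all of those genes) below 0.05, and all 10 members were among the genes tested. The values sum to between 359659 and 390467 RPKM per library. From the steps between low values, the relative depth was estimated at 0.882 to 1. The members were estimated to rest on 498 to 31160 units each per library. A unit is meant to be a read or a read pair, and the gene lengths are those of GENCODE M21. Read counts were not recovered, since only 27.9% to 30.1% of low values in single-exon genes lay within 0.02 of a whole unit.

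The targeted gene was checked first. Hnrnpk stood at 236 and 226 RPKM in the controls and at 68.0 and 70.5 RPKM after knockdown, which left 29.97% of the control level; 50.5% of its transcript matches other annotated genes. Pluripotency markers were high in every library, with none of the 10 under 0.5 RPKM. Their summed level was 3969 to 4122 RPKM in the controls and 4753 to 5080 RPKM after Hnrnpk siRNA. Dppa5a made the largest part of this sum, at 1320 and 1276 RPKM in the controls and 2164 and 2451 RPKM after Hnrnpk siRNA. The sum therefore does not describe the list as a whole. Of these markers 3 were called higher, among them Dppa5a (log2 change 0.83), and 3 lower, among them Sox2 (-0.53). Of 8 endothelial and 9 fibroblast markers, 4 and 5 stayed under 0.5 RPKM in all libraries. These included Emcn and Cdh5 of the former and Col3a1 and Dcn of the latter. Below that level, Cdh5 went up from 0.0505 and 0.0370 to 0.257 and 0.272 RPKM. Tie1 went up from 0.0604 and 0.0345 to 0.283 and 0.283 RPKM, while the groups overlapped for Emcn and Kdr. Pecam1 (36.6 to 50.3 RPKM) and Thy1 (2.22 to 6.90 RPKM) were the highest of each list. The summed levels were 42.4 to 58.4 and 5.88 to 10.6 RPKM. Of 4 tested in each list, 3 endothelial and 1 fibroblast markers were called higher, and 1 and 2 lower. The endothelial marker called lower was Cldn5, from 2.30 and 1.34 to 0.396 and 0.446 RPKM. The fibroblast marker called higher was Pdgfra, which also stands in the primitive endoderm list. Primitive endoderm markers were called higher in 6 of 6 tested genes. Their summed level was 11.8 to 12.0 RPKM in the controls and 53.1 to 55.1 RPKM after Hnrnpk siRNA. Of these genes, Pdgfra went from 0.191 and 0.148 to 0.835 and 0.961 RPKM. It passed the mean of 0.5 RPKM only through the Hnrnpk siRNA libraries. Trophectoderm markers were called higher in 5 of 5 (30.5 to 36.0 and 68.5 to 73.1 RPKM). Over all genes tested, 32.2% were called higher. Of the untested trophectoderm markers, Elf5 went down, from 0.105 and 0.109 to 0.0608 and 0.0705 RPKM. Cdx2 went up, from 0.166 and 0.303 to 0.731 and 0.749 RPKM. The part of such cells in the results below was not tested. In bulk RNA, fewer cells of a type and less RNA per cell cannot be told apart.

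After Hnrnpk siRNA the 3 prolyl hydroxylase transcripts and the targets Bnip3 and Ankrd37 fell, while no call was made for the 3 subunits, Vhl or Vegfa. So 5 of 10 members were called lower, where 35.0% of all genes tested were, and 0 were called higher, where 32.2% were. The count in the latter direction was also 0 at an unadjusted p under 0.05. Either direction was called for 67.2% of all genes, and the members' median log2 change was -0.15 beside -0.015 over all genes. Both knockdown libraries lay below both controls in the same 5 members and in 43.5% of all genes, and groups were separate in one direction or the other in 6 of 10 members and in 84.7% of all genes. A log2 change of -1 or less with a call was reached by 1 member, Bnip3, and by 4.52% of all genes. Egln3 was at -0.99, and its mean RPKM, without the added 0.5, was 46.6% of the control mean.

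**Figure D1:**
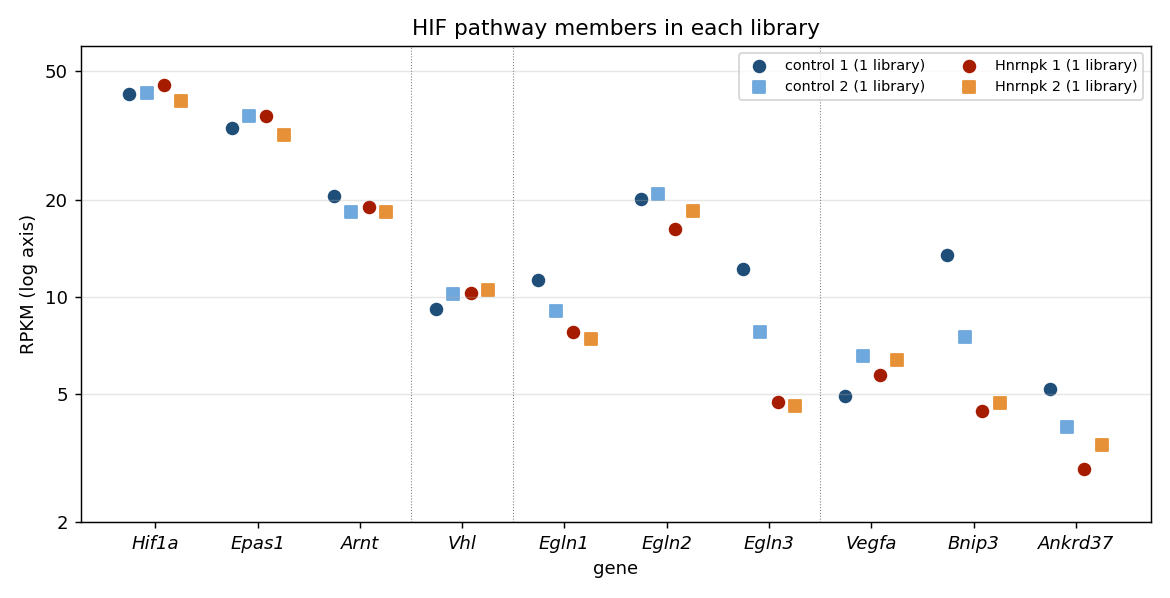
RPKM of each member (log axis) in the 4 libraries, 1 point per library, with dotted lines between subunits, Vhl, hydroxylases and targets. The Hnrnpk siRNA points lie below both control points for Egln1, Egln2, Egln3, Bnip3 and Ankrd37, and control replicate 1 stands far above control replicate 2 for Egln3 (12.2 and 7.77) and Bnip3 (13.5 and 7.50).

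Hif1a (ENSMUSG00000021109), which encodes the most widely used oxygen-labile subunit, was the most abundant member. It stood at 42.6 and 42.7 RPKM after control siRNA and at 45.5 and 40.6 RPKM after Hnrnpk siRNA. The control values lay between the other two, and the log2 change was 0.011 (limma SE 0.0703, adjusted p = 0.90; 95% confidence interval -0.15 to 0.17). The sign turned under quantile normalization (-0.032), with equal sums (-0.077) and with GC trends removed (-0.077). Of its longest coding transcript, 10.3% matched 2 other annotated genes.

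Epas1 (ENSMUSG00000024140) encodes the other well-studied alpha subunit, which is known from endothelium and kidney. It was the second most abundant member here, at 33.3 and 36.5 RPKM in the controls and 36.5 and 31.7 RPKM after knockdown. The groups overlapped, with a log2 change of -0.036 (limma SE 0.0812, adjusted p = 0.712; interval -0.22 to 0.15). Its sign turned with GC trends removed (0.038). The ratio of Hif1a to Epas1 was 1.28 and 1.17 in the controls and 1.25 and 1.28 after Hnrnpk siRNA, so the libraries did not separate by that ratio either (exact two-sided permutation p = 0.667).

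Arnt (ENSMUSG00000015522), the shared partner, stood at 20.6 and 18.4 RPKM after control siRNA and at 19.0 and 18.4 RPKM after Hnrnpk siRNA (log2 change -0.055, limma SE 0.0736, adjusted p = 0.527; interval -0.22 to 0.11). The alpha transcripts together were 3.69 and 4.31 times Arnt in the controls and 4.31 and 3.93 times Arnt in the others. All 3 subunit genes had overlapping groups.

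Vhl (ENSMUSG00000033933), the substrate receptor of the ligase that marks hydroxylated alpha subunits, was at 9.20 and 10.2 RPKM in the controls and 10.3 and 10.5 RPKM after Hnrnpk siRNA. The groups were separate by a narrow margin, but the log2 change of 0.097 (SE 0.0764; interval -0.074 to 0.27) was not called (limma adjusted p = 0.283). A separation with the Hnrnpk siRNA libraries above was seen in 41.2% of all genes.

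The 3 hydroxylase transcripts fell, by log2 changes of -0.99 to -0.24. Egln3 (ENSMUSG00000035105), the family member most strongly induced by HIF itself, stood at 12.2 and 7.77 RPKM after control siRNA and at 4.73 and 4.59 RPKM after Hnrnpk siRNA. The Hnrnpk siRNA libraries were close together and below both controls, which lay far apart. The group means were 9.99 ± 3.13 and 4.66 ± 0.103 RPKM (SD, n = 2 each), and the log2 change was -0.99 (limma SE 0.160, adjusted p = 0.000424; interval -1.35 to -0.63).

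Egln1 (ENSMUSG00000031987), the main oxygen sensor of the family, stood at 11.3 and 9.06 RPKM after control siRNA and at 7.76 and 7.42 RPKM after Hnrnpk siRNA. Its groups did not overlap, and the log2 change was -0.39 (limma SE 0.1001, adjusted p = 0.00626; interval -0.62 to -0.17). Egln2 (ENSMUSG00000058709), a hydroxylase that HIF is not known to induce, was the most abundant of the family, at 20.2 and 20.9 RPKM in the controls and 16.2 and 18.5 RPKM after Hnrnpk siRNA. Its controls were close together and the fall of -0.24 was called (limma SE 0.0768, adjusted p = 0.0187; interval -0.41 to -0.069). The call was lost when GC trends were removed (0.019, limma adjusted p = 0.825), and also when Hnrnpk siRNA replicate 1 was left out (-0.15, adjusted p = 0.188).

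Summed over the family, hydroxylase RNA was 43.7 and 37.7 RPKM in the controls and 28.7 and 30.5 RPKM after knockdown. The mean after Hnrnpk siRNA was 0.727 of the control mean. Egln3 contributed 27.9% and 20.6% of the sum with control siRNA and 16.5% and 15.0% after knockdown, and the ratio of Egln3 to Egln1 was 1.08 and 0.858 against 0.610 and 0.618. For the sum, this share and this ratio the exact two-sided permutation p was 0.333, the smallest that 2 libraries against 2 can give. Egln1 took a share of 24.0% to 27.0% in all 4 libraries, with overlapping groups.

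**Figure D2:**
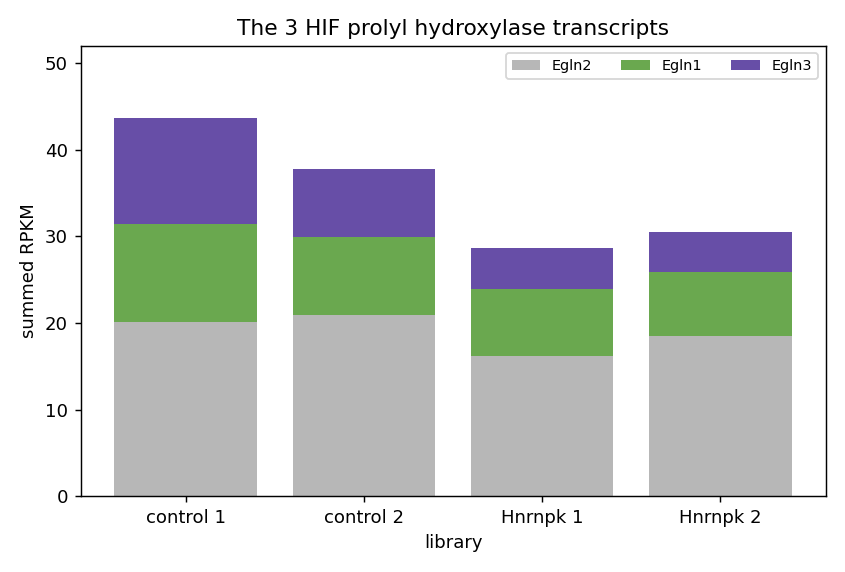
Stacked bars of Egln2, Egln1 and Egln3 RPKM in each library (1 bar per library, no error bar). The sum is 43.7 and 37.7 RPKM in the controls and 28.7 and 30.5 RPKM after Hnrnpk siRNA; Egln3 goes from 12.2 and 7.77 to 4.73 and 4.59 RPKM.

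Bnip3 (ENSMUSG00000078566) had the lowest log2 change of the members. It encodes a mitochondrial outer membrane protein that promotes mitophagy. It stood at 13.5 and 7.50 RPKM after control siRNA and at 4.41 and 4.68 RPKM after Hnrnpk siRNA. Both Hnrnpk siRNA libraries lay below both controls, and control replicate 1 was 1.80 times control replicate 2. The means were 10.5 ± 4.21 and 4.55 ± 0.190 RPKM (SD, n = 2 each), with a log2 change of -1.07 (limma SE 0.199, adjusted p = 0.00106; interval -1.51 to -0.62). The level of Bnip3 is uncertain: 94.2% of its longest coding transcript (1654 of 1756 bases) matched 5 other annotated genes at 95% identity or more, with AC160336.1 the longest match, and Gm45507 on the opposite strand overlaps 22.3% of its exonic bases. Those genes were not analysed here, and the sources used here do not say how reads with several matches were counted.

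Ankrd37 (ENSMUSG00000050914), a small ankyrin repeat gene and a known HIF target, was the lowest member, at 5.19 and 3.94 RPKM in the controls and 2.93 and 3.48 RPKM after knockdown. The groups did not overlap and the log2 change was -0.45 (limma SE 0.124, adjusted p = 0.0100; interval -0.73 to -0.17). Without Hnrnpk siRNA replicate 1 the call was lost (-0.34, adjusted p = 0.0882). Lrp2bp, on the opposite strand, overlaps 22.7% of its exonic bases, and the sources used here do not say whether counting used strand.

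Vegfa (ENSMUSG00000023951), the angiogenic growth factor and a textbook HIF target, was not called. It stood at 4.94 and 6.55 RPKM after control siRNA and at 5.74 and 6.39 RPKM after Hnrnpk siRNA. The control libraries spanned the others, and the log2 change of 0.083 was not called (limma SE 0.119, adjusted p = 0.554; interval -0.18 to 0.35). Which way it pointed depended on the control library: the log2 change was 0.27 without control replicate 2 and -0.10 without control replicate 1.

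**Figure D3:**
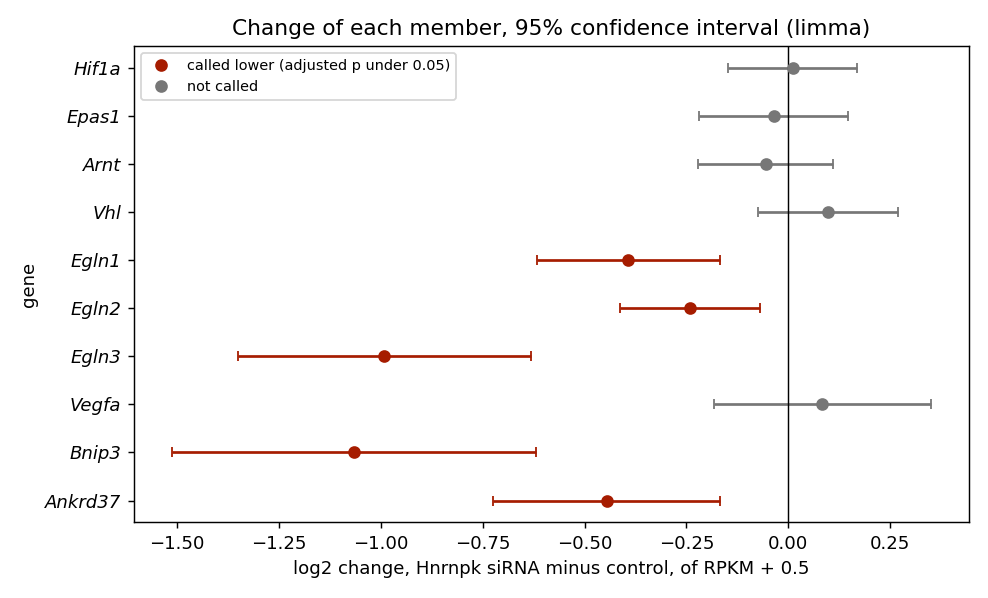
Log2 change of each member (point) with its 95% confidence interval from limma (bar). Intervals of the 5 called members lie below 0, and those of Hif1a, Epas1, Arnt, Vhl and Vegfa include 0.

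By level (mean RPKM of the 4 libraries, a scale per length), the order was Hif1a, Epas1, Arnt, Egln2, Vhl, Egln1, Bnip3, Egln3, Vegfa and Ankrd37, from 42.8 down to 3.88 RPKM. Arnt (19.1) and Egln2 (18.9), and Bnip3 (7.51) and Egln3 (7.32), were neighbours whose values overlapped across the libraries. Among the genes tested, the profile of Hif1a over the 4 libraries, centred on its own mean, was nearest to those of Wdfy3, Dmd and Zfp526 (root mean square difference 0.00789 to 0.0114 on the log2 scale), and that of Vegfa to those of Ap4s1, Tmco1 and Slc25a10 (0.00807 to 0.0330).

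The size of the falls depended on the first control library. Without control replicate 1 the log2 change of Bnip3 was -0.66, that of Egln3 -0.68, that of Ankrd37 -0.27 and that of Egln1 -0.24. Without control replicate 2 the same values were -1.47, -1.30, -0.62 and -0.54. All 4 genes stayed below 0 either way, and Egln2 was -0.27 and -0.22. These fits hold 1 control library, so their p-values take no spread from the controls and are not given.

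The difference between the control libraries was itself large for these genes. Control replicate 1 exceeded control replicate 2 by 0.80 on the log2 scale for Bnip3, a difference that 0.0961% of all genes tested surpassed in size. The same difference was 0.62 for Egln3 (0.376% of genes surpassed it), 0.36 for Ankrd37 (3.44%) and 0.30 for Egln1 (6.02%), whereas Vegfa differed the other way by -0.37 (2.92%). For Hif1a it was -0.0057, which 96.5% of genes surpassed. After Hnrnpk siRNA the replicates of Bnip3 and Egln3 differed by -0.077 and 0.041. The limma SEs of these 2 genes (0.199 and 0.160) and their intervals draw on variance pooled over genes. They therefore do not measure the spread of these controls alone. The ratio of Bnip3 to Egln3 stayed at 1.10, 0.964, 0.933 and 1.02 across the libraries in the order above. The part of this difference between controls in the changes after Hnrnpk siRNA was not tested beyond leaving out each library.

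**Figure D4:**
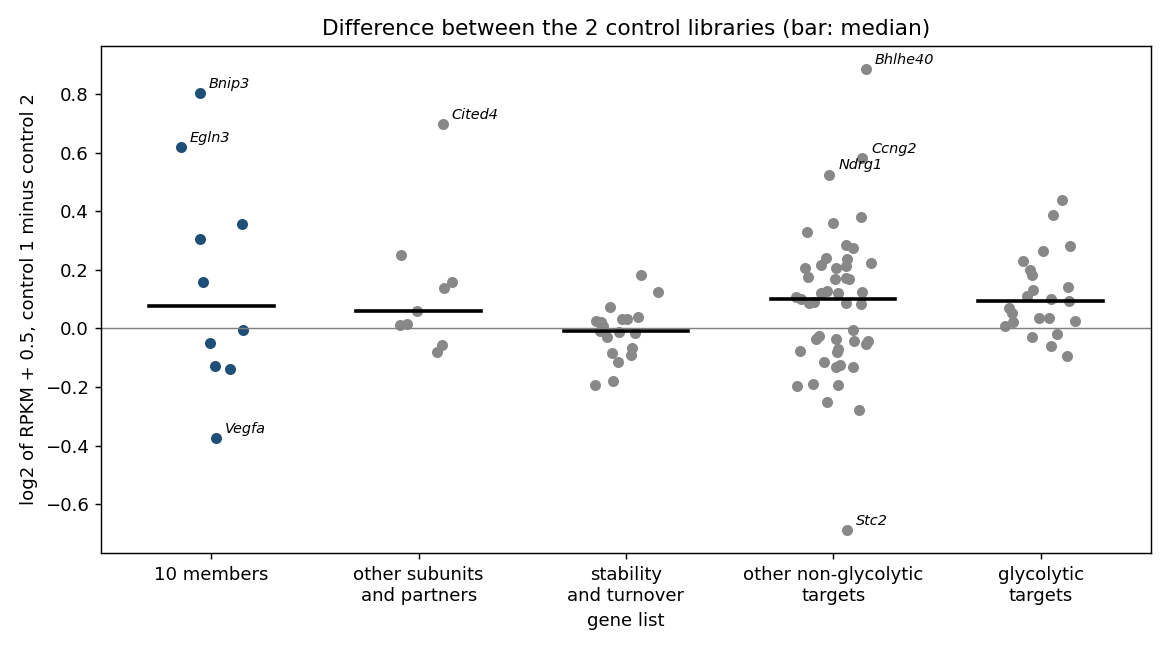
Log2 difference in RPKM + 0.5 between the control libraries (1 point per tested gene, bar at the median) for the members and 4 further pathway lists. Bnip3 (0.80) and Egln3 (0.62) stand above the other members, Vegfa (-0.37) below, and gene names mark differences of at least 0.5 in size, besides Vegfa.

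Other genes of the pathway were described from 4 lists. Of 9 further subunits and partners, 2 (22.2%) were called higher and 4 (44.4%) lower, beside 32.2% and 35.0% of all genes, and the median log2 change was -0.11 beside -0.015. Cited2, which encodes a HIF-induced protein that competes with HIF for the coactivators CBP and p300, rose from 22.8 and 23.8 to 64.5 and 66.2 RPKM (log2 change 1.47, limma SE 0.0618, adjusted p = 1.39e-07). Its relative Cited4 fell from 4.16 and 2.37 to 1.35 and 1.36 RPKM (log2 change -0.98), with a log2 change of -0.63 without control replicate 1 and of -0.64 with GC trends removed. Hif3a, a further alpha subunit with variants that restrain HIF, fell from 5.03 and 4.15 to 3.17 and 2.87 RPKM (log2 change -0.53, limma SE 0.102, adjusted p = 0.00131). Arnt2, the paralog of Arnt, fell from 1.91 and 1.67 to 0.973 and 0.910 RPKM (log2 change -0.67). The clock relatives moved apart, with Arntl at a log2 change of 0.48 and Arntl2 at -0.33. No call was made for Hif1an, the asparagine hydroxylase that blocks coactivator binding (-0.11), or for the coactivator genes Crebbp (0.045) and Ep300 (0.14).

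Of 19 genes that act on HIF stability and turnover, 9 (47.4%) were called higher and 3 (15.8%) lower, with a median of 0.16; over all genes the shares were 32.2% and 35.0%. Tceb1, the elongin C of the VHL ligase, rose from 113 and 128 to 189 and 193 RPKM (log2 change 0.66, limma SE 0.0739, adjusted p = 3.92e-05). Tceb2, the elongin B of that ligase, rose as well (log2 change 0.26, adjusted p = 0.0103), while the scaffold Cul2 (-0.15, adjusted p = 0.0591) and the RING subunit Rbx1 (-0.092, adjusted p = 0.314) were not called. Siah2, a ligase that degrades prolyl hydroxylases, fell from 6.53 and 6.60 to 3.31 and 3.65 RPKM (log2 change -0.83, limma SE 0.0820, adjusted p = 1.88e-05). Wsb1 (log2 change 0.86), reported to act on VHL, Os9 (0.71) and the chaperone Hsp90aa1 (0.70) rose, and the ligase Stub1 (-0.43) and the deubiquitinase Usp20 (-0.51) fell. Hsp90aa1 shares 68.7% of its transcript with other genes, and Stub1 overlaps Jmjd8 on the opposite strand over 42.3% of its exonic bases.

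Of 61 further non-glycolytic HIF targets, 59 were in the table and 49 passed the mean of 0.5 RPKM. Of these 49, 22 (44.9%) were called higher and 17 (34.7%) lower, with a median of 0.25, beside 32.2% and 35.0% of all genes. Among those called higher, Bhlhe41 (0.296 and 0.191 to 0.877 and 0.902 RPKM) and Dsc2 (0.424 and 0.349 to 1.61 and 1.58 RPKM) passed that mean only through the Hnrnpk siRNA libraries. With a mean of at least 1 RPKM required, 20 were called higher and 16 lower. Hmox1, heme oxygenase, rose from 80.9 and 96.4 to 329 and 355 RPKM (log2 change 1.95, limma SE 0.0879, adjusted p = 1.95e-07). Kdm3a, a histone demethylase, rose from 36.8 and 37.8 to 73.7 and 71.9 RPKM (log2 change 0.96), Ddit4, an inhibitor of mTORC1, from 16.2 and 14.0 to 35.6 and 41.9 RPKM (1.33), and Edn1, endothelin, from 0.593 and 0.652 to 2.46 and 2.35 RPKM (1.37). Ppfia4, a liprin, fell from 5.54 and 4.62 to 1.65 and 1.72 RPKM (log2 change -1.35, limma SE 0.0991, adjusted p = 3.09e-06). Cox4i2, the hypoxic isoform of a cytochrome c oxidase subunit, fell from 4.43 and 3.72 to 1.61 and 1.28 RPKM (-1.23), Car12, a carbonic anhydrase, from 2.77 and 2.32 to 0.904 and 0.902 RPKM (-1.11), and Inha, the inhibin alpha subunit, from 2.74 and 2.54 to 0.540 and 0.716 RPKM (-1.48). Bnip3l, the paralog of Bnip3, went the other way from it, from 19.1 and 17.4 to 21.5 and 24.4 RPKM (log2 change 0.32, limma adjusted p = 0.00566); it was singled out after its values were seen. Of the 10 targets below the filter, Car9, a classical marker of HIF activity, was at 0.447 and 0.427 RPKM in the controls and 0.363 and 0.312 RPKM in the others, and Adm at 0.447 and 0.182 against 0.189 and 0.286 RPKM.

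Among 23 glycolytic HIF targets, 16 (69.6%) were called lower and 3 (13.0%) higher, with a median of -0.40, beside 35.0% and 32.2% of all genes. Pdk1 had the lowest log2 change (-2.42), followed among the named genes by Slc16a3 (-1.68), Ldha (-1.39) and Tpi1 (-1.12), whereas Slc2a3 (0.75), Gpi1 (0.40) and Pfkfb4 (0.30) rose. Ldha and Gpi1 share 55.0% and 55.3% of their transcripts with other genes.

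**Figure D5:**
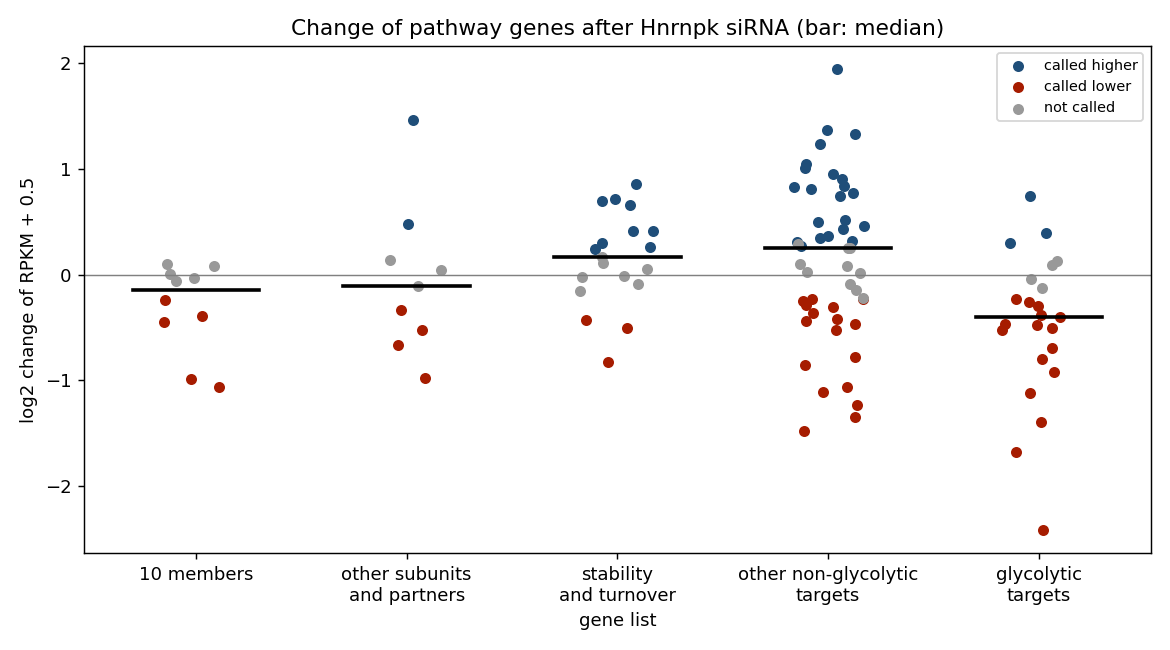
Log2 change after Hnrnpk siRNA of every tested gene in the members and 4 further lists (points coloured by call, bar at the median). The medians are -0.15, -0.11, 0.16, 0.25 and -0.40 from left to right, and the further non-glycolytic targets spread from -1.48 to 1.95.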

How the data were processed

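RNA-seq of 4 libraries was used, 2 per group, with groups and replicate numbers taken from the sample titles. The authors deposited RPKM values per gene and library. The submitters' processing notes name BWA, SAMtools and mm9, with no version or order. The sources used here do not give the counting tool, annotation, strand use or treatment of reads with several matches. Read counts could not be recovered: 27.9% to 30.1% of low values in single-exon genes lay within 0.02 of a whole unit.

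Genes whose mean reached 0.5 RPKM (12486 of 22138) were compared as log2(RPKM + 0.5) with limma 3.58.1 in R 4.3.3 (mean-variance trend, 7.47 prior degrees of freedom, two-sided, Benjamini-Hochberg); the added 0.5 RPKM understates changes of low genes. The fit was also run on simulated data with few changed genes and equal spread in both groups, unlike these data. Its outcome is not used here. The members and lists were chosen with earlier results of these data known. Named are all members, Hnrnpk, Pdk1, per further list up to 4 genes called in each direction with the lowest p, and the 3 genes nearest in profile to Hif1a and Vegfa; single uncalled list genes, Tceb2, markers, Bnip3l and the genes named by the difference between controls were added after their values were seen. Promoter windows are RefSeq's on GRCm38.p6. GC content, exon overlap and shared sequence (BLAST 2.17.0, 95% identity, at least 100 bases) come from GENCODE M21, another build than mm9, by identifier (92.8% of genes found). Alternatives were an added 0.1 or 1 RPKM, other filters, 3 scalings, a replicate block, no variance trend, GC trends removed, and leaving out each library.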

Additional observations from a re-analysis of the deposited data

How the results depend on the processing

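Bnip3, Egln3 and Egln1 kept their direction under every alternative run, at log2 changes of -1.47 to -0.66, -1.30 to -0.68 and -0.54 to -0.24. They kept their call under every alternative that used all libraries. Without a filter on low values 3 members were called lower instead of 5, since Ankrd37 (-0.45, adjusted p = 0.0711) and Egln2 (-0.24, adjusted p = 0.0520) missed the threshold; more genes entered that fit. Leaving out 1 library at a time gave 3 to 5 members called lower and 0 to 1 called higher, with log2 changes of -0.62 to -0.27 for Ankrd37, -0.33 to -0.15 for Egln2, -0.10 to 0.27 for Vegfa, -0.13 to 0.024 for Arnt, -0.14 to 0.064 for Epas1 and -0.070 to 0.092 for Hif1a. With GC trends removed the log2 change was 0.019 for Egln2, 0.038 for Epas1 and -0.077 for Hif1a, and 5 glycolytic targets were called higher instead of 3. Hif1a was at -0.032 under quantile normalization and at -0.077 with each library scaled to the same sum, a scaling that also gave 5 stability and turnover genes called lower instead of 3 and shifted the median of all genes by -0.095. The cause of each of these shifts, beyond those stated, was not tested. Over all genes, 3291 to 4760 were called higher and 3954 to 5156 lower under the alternatives that used all libraries.

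No pairing by replicate number was seen: the deviations of same-numbered libraries from their group means correlated at 0.027 across genes. That value cannot show whether same-numbered libraries were prepared together. With the replicate block 4162 genes were called higher and 4460 lower, and the members' calls were the same 5. For the 29 further named genes, 403 of 406 values under the alternatives kept direction and call, and 3 (Arntl2 and Pfkfb4, without an Hnrnpk siRNA library) missed the threshold. With 2 libraries per group, calls rest on the variance that limma pools over genes. A call with a library left out takes its spread from the other group alone.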

Other observations

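Large differences between the control libraries were more frequent among pathway genes than over the table, as a count made after the values were seen. Control replicate 1 exceeded control replicate 2 by at least 0.5 on the log2 scale in 0.601% of all genes tested and in 6 of the 110 tested genes of the 5 lists (5.45%). These were Bnip3, Egln3, Cited4, Bhlhe40, Ccng2 and Ndrg1, and Stc2 was the 1 gene of the lists with as large a difference the other way. Bhlhe40, a transcriptional repressor, stood at 7.06 and 3.59 RPKM in the controls and at 8.83 and 8.80 RPKM after Hnrnpk siRNA. Ccng2, an atypical cyclin, stood at 2.33 and 1.39 RPKM and at 2.19 and 2.33 RPKM. Ndrg1, a stress-responsive gene, stood at 3.64 and 2.38 RPKM and at 2.93 and 2.57 RPKM. Cited4 was at 4.16 and 2.37 RPKM and then at 1.35 and 1.36 RPKM. Stc2, which encodes a secreted glycoprotein, stood at 4.20 and 7.07 RPKM in the controls and at 2.72 and 3.25 RPKM after Hnrnpk siRNA. The glycolytic targets had no gene with a difference of that size, though control replicate 1 was the higher in 19 of 23. The same order held in 57.3% of all genes and in 66.5% of all genes called lower. The members shared this order in 5 of 10 genes. No test was run on these counts.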
